A study of Homo sapiens with 4 samples.

Results

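Transcripts of 10 genes of the BCL2 family of apoptosis regulators were followed across 4 RNA-seq libraries. The genes are a list of names: the anti-apoptotic genes BCL2, BCL2L1 and MCL1, the effector genes BAX and BAK1, and the BH3-only genes BID, BAD, BBC3, PMAIP1 and BCL2L11. All 10 were among the 32955 genes listed, and 9 of them were among the 13871 genes with a mean of at least 1 RPKM (reads on a gene, scaled by the length of its exons and by the library's total of reads on genes), which were tested. BCL2 was under that level.

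The libraries were labelled as MDA-MB-231, an established human line derived from breast cancer without estrogen receptor. A control oligonucleotide, mimic NC, had been transfected for 2 libraries, and miR-217 mimic, a synthetic RNA duplex that supplies miR-217, for the other 2, so that no library came from untransfected cells. The libraries of each group carry the numbers 1 and 2, and the labels say neither what a number marks nor whether the libraries of a group came from separate cultures. The p-values therefore measure only the spread between these libraries, which may be technical. The dose and duration of the transfection behind the libraries are not given in the sources used here.

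The libraries held 57933183 and 47374957 reads on genes in mimic NC and 53356283 and 32635814 in miR-217 mimic. Both libraries numbered 2 thus held fewer reads than both numbered 1, and the second miR-217 mimic library held the fewest. Of the 5 markers looked for in this line, VIM, CD44, EGFR, AXL and CAV1 were at 5.17 to 36.9 RPKM, while ESR1, CDH1 and GATA3 were at 0.433 RPKM or lower and PGR was not analysed here. Going against the label, EPCAM was at 3.90 to 7.41 RPKM, FOXA1 at 1.30 to 1.70 RPKM and CDKN2A, generally described as deleted in this line, at 10.5 to 13.2 RPKM, and the identity of the cells was not tested. The libraries numbered 2 stood apart from those numbered 1 in both groups, with 71.3% of the variance between libraries on the first principal component, which ordered them by number. The order on that component also followed the falling totals of reads, so the number and the depth cannot be told apart.

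BCL2 family proteins decide whether the outer membrane of the mitochondrion stays intact. BAX and BAK1 form pores in it once activated, which releases cytochrome c and starts the caspases. BCL2, BCL2L1 (BCL-XL) and MCL1 hold BAX and BAK1 in check. The BH3-only proteins are the sensors: BCL2L11 (BIM), BBC3 (PUMA) and cleaved BID engage both sides, BAD binds mainly BCL2 and BCL-XL, and PMAIP1 (NOXA) binds mainly MCL1. MCL1 and PMAIP1 turn over quickly, and breast cancer cells commonly rely on MCL1 and BCL-XL for survival.

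Since miR-217 recognises targets by its seed, the mature sequence and the matches to the seed in the members' transcripts are shown. The sequence of hsa-miR-217-5p is from RefSeq (GRCh38.p14, chr2:55983020-55983042, minus strand), with the seed, bases 2 to 8, in capitals. The site that pairs with the seed is ATGCAGT in the transcript, and TGCAGTA is the weaker form that pairs with bases 2 to 7 and ends in A. Both were searched in the longest annotated 3'UTR of each gene (GENCODE 29, GRCh38), and each match is printed with 11 bases on either side, the match in capitals.
hsa-miR-217-5p: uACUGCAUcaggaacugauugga
MCL1, bases 61 to 67 after the stop codon: aaaaccagtttATGCAGTtggactccaag
MCL1, bases 2626 to 2632: cagggaaaaacATGCAGTcctctagtgtt
BCL2L11, bases 561 to 567: atggtgtttacATGCAGTgtgttttcccc
BCL2, bases 2348 to 2354: gtcttcctgaaATGCAGTggtgcttacgc
BCL2, bases 2568 to 2574, the weaker form: tggagtcagttTGCAGTAtgctccacgtg

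The matches of MCL1 lie on the minus strand at chr1:150577308-150577314 and chr1:150574743-150574749, that of BCL2L11 on the plus strand at chr2:111164526-111164532, and those of BCL2 on the minus strand at chr18:63126271-63126277 and chr18:63126051-63126057. The other 7 members held neither form, and among 9909 tested genes 14.5% held ATGCAGT and 13.2% held TGCAGTA. The members with a match had 3'UTRs of 2824 to 5279 bases, the other members had 379 to 1553 bases, and the median of the 9909 genes was 1326 bases. A match describes the letters of the transcript and not a working site.

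The 3 anti-apoptotic genes differed widely in level. MCL1 (chr1:150574551-150579738, minus strand) was at 39.5 and 29.8 RPKM in mimic NC replicates 1 and 2, and at 36.3 and 29.4 RPKM in miR-217 mimic replicates 1 and 2. BCL2L1 (chr20:31664452-31723989, minus strand) was at 25.1 and 26.9 RPKM in mimic NC and at 24.9 and 24.8 RPKM in miR-217 mimic. MCL1 was thus low in both libraries numbered 2, whereas BCL2L1 stayed within a narrow range. ABALON, on the opposite strand, shares 43% of the exon bases of BCL2L1 and was at 34.5 to 39.1 RPKM, and since the strand setting of the counting is not given in the sources used here, the level of BCL2L1 is uncertain. BCL2 (chr18:63123346-63320128, minus strand), the founding gene of the family, was at 0.588 and 0.693 RPKM in mimic NC and at 0.561 and 0.760 RPKM in miR-217 mimic, from 292 to 401 reads. Per kilobase, BCL2L1 was 32.5 to 44.3 times as high as BCL2, as far as the level of BCL2L1 can be told.

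Both effector genes were at a few RPKM. BAX (chr19:48954815-48961798, plus strand) was at 7.21 and 6.60 RPKM in mimic NC and at 7.74 and 4.22 RPKM in miR-217 mimic. The second miR-217 mimic library was the low value, with 356 reads and a 95% Poisson interval of 3.79 to 4.68 RPKM. BAK1 (chr6:33572547-33580293, minus strand) was at 4.86 and 5.37 RPKM in mimic NC and at 4.30 and 4.88 RPKM in miR-217 mimic, and so spread less than BAX. Poisson intervals cover counting error only, and reads without molecular identifiers are not independent molecules.

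The 5 BH3-only genes ran from 0.838 to 17.2 RPKM over the libraries. BAD (chr11:64269830-64284704, minus strand), a sensor of survival signalling through its phosphorylation, was at 17.2 and 16.4 RPKM in mimic NC and at 13.2 and 10.5 RPKM in miR-217 mimic, with both mimic libraries under both control libraries. PMAIP1 (chr18:59899948-59904306, plus strand) was at 5.99 and 12.7 RPKM in mimic NC and at 5.72 and 11.6 RPKM in miR-217 mimic, which set the libraries numbered 2 apart from those numbered 1 in either group. BID (chr22:17734138-17774770, minus strand), which caspase-8 cleaves on the way from death receptors to mitochondria, was at 4.54 and 4.76 RPKM in mimic NC and at 4.16 and 4.38 RPKM in miR-217 mimic.

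BBC3 and BCL2L11, both strong activators of BAX and BAK1 as proteins, were the lowest BH3-only transcripts. BBC3 (chr19:47220822-47232766, minus strand) was at 1.62 and 1.38 RPKM in mimic NC and at 1.53 and 0.838 RPKM in miR-217 mimic. As for BAX, the low library was the second miR-217 mimic library, with 87 reads and a 95% Poisson interval of 0.671 to 1.03 RPKM, compared with 1.35 to 1.73 RPKM in the first. BCL2L11 (chr2:111119378-111168447, plus strand) was at 1.11 and 1.01 RPKM in mimic NC and at 1.03 and 1.16 RPKM in miR-217 mimic, so that its groups overlapped.

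**Figure D1:**
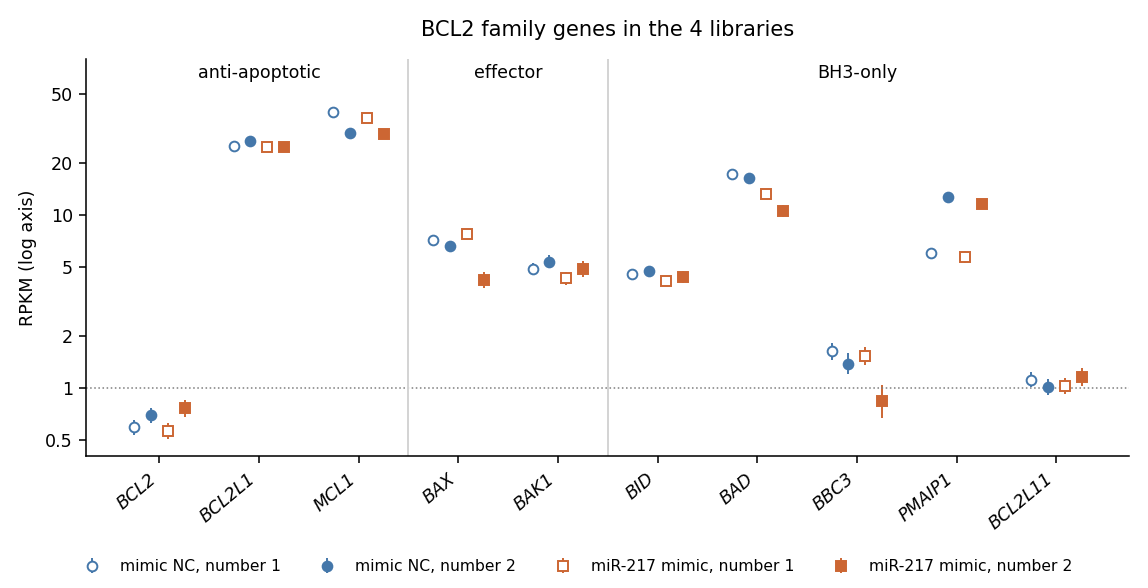
RPKM (log axis) of the 10 BCL2 family genes in each of the 4 libraries, with 95% Poisson intervals of the read counts as bars and the 1 RPKM level dotted. The filled symbols of PMAIP1, at 12.7 and 11.6 RPKM in the libraries numbered 2, stand over the open symbols, and the orange squares of BAD, at 13.2 and 10.5 RPKM, stand under the blue circles.

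Ordered by mean RPKM, the members ran from MCL1 at 33.8 through BCL2L1 at 25.4, BAD at 14.3, PMAIP1 at 8.99, BAX at 6.44, BAK1 at 4.85, BID at 4.46, BBC3 at 1.34 and BCL2L11 at 1.08 to BCL2 at 0.651. In every library MCL1, BCL2L1 and BAD held the order MCL1, BCL2L1, BAD without overlap between genes. PMAIP1 overlapped both BAD and BAX in range, BAX overlapped BAK1 and BID, which overlapped each other, and BBC3 overlapped BCL2L11. By their ranges those neighbours could not be ranked. Within each library BAK1 was over BID, although their 95% Poisson intervals overlapped in each. Summed RPKM of the anti-apoptotic genes was 65.2 and 57.4 in mimic NC and 61.7 and 54.9 in miR-217 mimic. The BH3-only sum was 30.5 and 36.2 in mimic NC and 25.6 and 28.5 in miR-217 mimic. It was thus higher in the library numbered 2 of each group, while the anti-apoptotic sum was lower. The effector sum, 12.07 and 11.97 in mimic NC and 12.03 and 9.09 in miR-217 mimic, was also lower. PMAIP1 carried the BH3-only rise: within both groups BID was slightly higher, BAD and BBC3 were lower, and BCL2L11 was mixed. MCL1 carried the anti-apoptotic fall: BCL2 was higher within both groups, and BCL2L1 was higher in mimic NC only. The BH3-only and anti-apoptotic sums thus each followed 1 gene rather than the class.

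In the libraries numbered 2, PMAIP1 was higher and MCL1, whose protein NOXA binds, was lower. Mean PMAIP1 was 12.1 ± 0.757 RPKM (SD, n = 2) in the libraries numbered 2 and 5.85 ± 0.188 RPKM (SD, n = 2) in those numbered 1, which was 107% higher. On the log2(RPKM + 1) scale, which understates changes of low genes, PMAIP1 rose by 0.94 ± 0.080 (SE), with a 95% interval of 0.73 to 1.14 and an adjusted p of 0.0147 (limma, Benjamini-Hochberg over 13871 genes). The rise was of like size within each group, at 0.97 between the mimic NC libraries and 0.91 between the miR-217 mimic libraries. It ranked 96th from the highest of all tested genes. The adjusted p was 0.107 without mimic NC replicate 1 and 0.110 without miR-217 mimic replicate 1, with log2 fold changes of 0.96 and 0.91, and in those fits 0.0649% and 0.0937% of all genes passed.

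MCL1 was at 29.6 ± 0.249 RPKM (SD, n = 2) in the libraries numbered 2 and at 37.9 ± 2.28 RPKM (SD, n = 2) in those numbered 1. Its log2 fold change was -0.35 ± 0.076 (SE), with an unadjusted p of 0.0060 and an adjusted p of 0.0601 by limma, so that it passed the unadjusted and not the adjusted threshold of 0.05. Both groups held the direction, at -0.40 in mimic NC and -0.30 in miR-217 mimic. Its adjusted p was 0.0304 without mimic NC replicate 2, where 28.3% of all genes passed, and its unadjusted p was 0.0788 without mimic NC replicate 1. The ratio of MCL1 to PMAIP1 in RPKM was 6.61 and 6.35 in the libraries numbered 1 and 2.35 and 2.54 in those numbered 2, a ratio chosen after the values were seen and given as a description.

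The other 7 tested members did not pass either threshold between the numbers. BAX had a log2 fold change of -0.43 ± 0.188 (SE) and BBC3 of -0.30 ± 0.145 (SE), and both were lower in the libraries numbered 2 without overlap. Within the groups these differences were unequal, at -0.11 in mimic NC and -0.74 in miR-217 mimic for BAX, and at -0.14 and -0.46 for BBC3. Without mimic NC replicate 2 the adjusted p was 0.00797 for BAX and 0.0245 for BBC3 by limma, but in that fit 1 library stood for number 2, the spread came from the libraries numbered 1 alone, and 28.3% of all genes passed. Without miR-217 mimic replicate 2 their log2 fold changes were -0.16 and -0.11. BAK1 was higher without overlap, at 0.14 ± 0.093 (SE). The 95% intervals of BID (-0.16 to 0.27), BCL2L1 (-0.15 to 0.24) and BCL2L11 (-0.23 to 0.25) were narrow and included 0, while that of BAD was wider, at -0.78 to 0.41.

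The members' counts between the numbers were read against those of all tested genes. An adjusted p under 0.05 was reached by 1 of 9 members and by 7.04% of all tested genes. An unadjusted p under 0.05 was reached by 2 of 9 members and by 30.2% of all genes, with 1 member and 12.8% of genes higher and 1 member and 17.4% of genes lower. The libraries did not overlap for 5 of 9 members and for 62.4% of all genes. The members' median log2 fold change was 0.0079, and that of all tested genes was -0.035. BCL2, in a fit of all 32955 genes without a filter, had a log2 fold change of 0.13 ± 0.082 (SE) with an adjusted p of 0.534 by limma, although both libraries numbered 2 were higher, by 26.5% in mean RPKM. With 2 libraries against 2, an exact two-sided permutation test of a single value cannot give a p under 0.333, and so only the fit across genes was used.

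**Figure D2:**
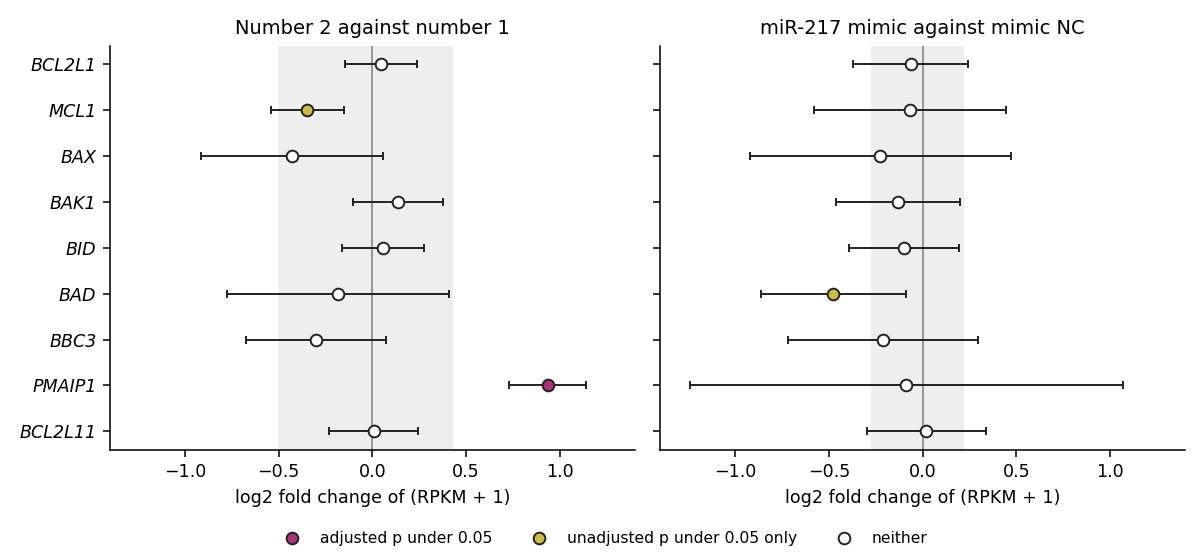
Log2 fold changes of RPKM + 1 for the 9 tested members with 95% limma intervals, for number 2 against number 1 (left) and for miR-217 mimic against mimic NC (right), with the range between the 5th and 95th percentile of all 13871 tested genes in grey. PMAIP1 at 0.94 and BAD at -0.48 stand outside the grey range of their panels.

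The comparison of miR-217 mimic with mimic NC is the one the study was designed for, to find genes that respond to the microRNA. BAD was the only member past the unadjusted threshold. Its mean was 11.9 ± 1.86 RPKM (SD, n = 2) in miR-217 mimic and 16.8 ± 0.604 RPKM (SD, n = 2) in mimic NC. The log2 fold change was -0.48 ± 0.148 (SE), with a 95% interval of -0.86 to -0.09, an unadjusted p of 0.0252 and an adjusted p of 1.00 by limma, so that it failed the correction over all genes. BAD was lower in the mimic library of both numbers, at -0.36 between the libraries numbered 1 and -0.59 between those numbered 2, and it ranked 124th from the lowest of all tested genes. With 1 library left out at a time, its log2 fold change ranged from -0.62 to -0.33, and whether it passed the unadjusted threshold depended on the library left out. The lowest value of BAD was in miR-217 mimic replicate 2, at 10.5 RPKM, the library with the fewest reads. GPR137, on the opposite strand, shares 23.7% of the exon bases of BAD, and it was at 6.44 and 5.79 RPKM in mimic NC and at 5.10 and 4.11 RPKM in miR-217 mimic. The part of GPR137 reads in the BAD values was not tested. The 3'UTR of BAD held no match to the seed of miR-217.

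For the members that do hold a match, the differences were small beside their errors. MCL1, with 2 matches, had a log2 fold change of -0.068 ± 0.197 (SE) and a 95% interval of -0.58 to 0.45. BCL2L11, with 1 match, had 0.019 ± 0.122 (SE) and an interval of -0.30 to 0.34. BCL2, with 1 match of each form, had 0.016 ± 0.130 (SE) in the fit without a filter. The groups overlapped for all 3, and these fits, which hold no replicate term, cannot exclude changes inside those intervals. For MCL1, which differed between the numbers, mimic minus control was -0.12 between the libraries numbered 1 and -0.017 between those numbered 2.

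The groups did not overlap for 2 further members, BID at -0.10 ± 0.113 (SE) and BCL2L1 at -0.065 ± 0.117 (SE), both lower in miR-217 mimic. PMAIP1 was at -0.087 ± 0.443 (SE), with an interval of -1.24 to 1.07 that was the widest of the members. Its difference between the numbers, 0.97 in mimic NC and 0.91 in miR-217 mimic, counted as spread within the groups in this fit. BAX at -0.23 ± 0.267 (SE) had differences of opposite sign, 0.089 between the libraries numbered 1 and -0.54 between those numbered 2. For BBC3, at -0.21 ± 0.194 (SE), these differences were -0.051 and -0.37. BAK1 was at -0.13 ± 0.126 (SE).

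Between the groups, no member passed an adjusted p of 0.05 by limma on RPKM or by voom on recovered reads, and on RPKM 0% of all genes did. An unadjusted p under 0.05 was reached by 1 of 9 members and by 1.19% of all genes, that member being lower together with 0.707% of genes, while no member and 0.483% of genes were higher. The groups did not overlap for 3 of 9 members, compared with 23.2% of all genes. Of the 9 members, 8 had a negative log2 fold change, as had 55.6% of all tested genes, and the members' median was -0.10 beside -0.017 over all genes. In bulk RNA, fewer cells of a kind and less RNA per cell cannot be told apart.

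**Figure D3:**
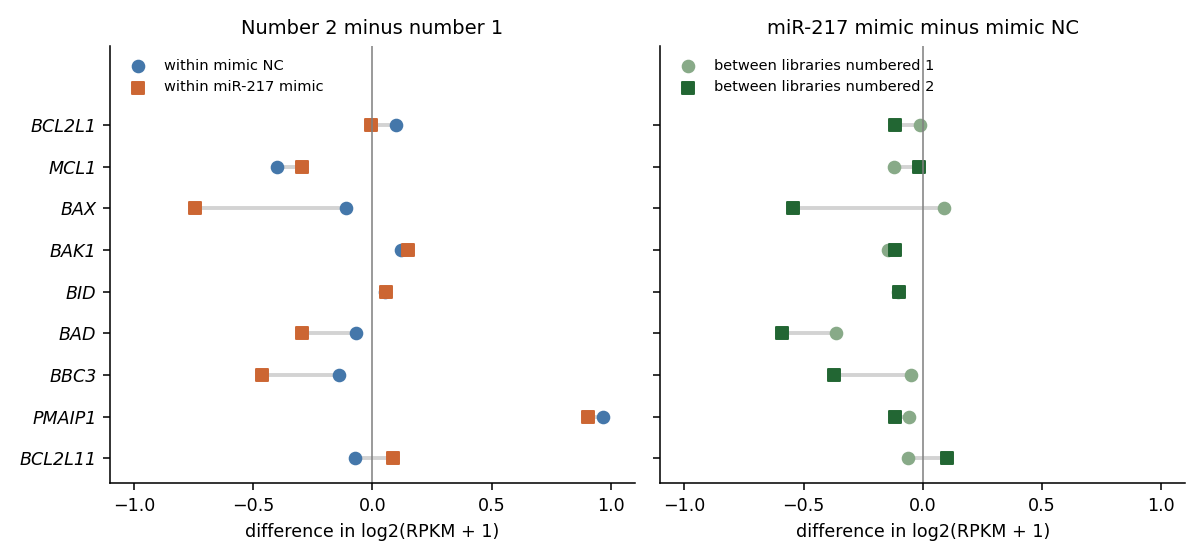
Differences in log2(RPKM + 1) of the 9 tested members between single libraries, for number 2 minus number 1 within each group (left) and for miR-217 mimic minus mimic NC between libraries of the same number (right). The 2 differences of PMAIP1 on the left, 0.97 and 0.91, lie close together, while those of BAX, -0.11 and -0.74, lie far apart.

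The other relatives of the family were few among the tested genes. Of 13 listed, 8 were tested, and between the numbers 1 was higher and 1 lower at an unadjusted p under 0.05, beside 12.8% and 17.4% of all genes, with a median log2 fold change of -0.0098 beside -0.035 over all genes. BCL2L15, a little studied relative, was at 2.01 and 1.64 RPKM in the libraries numbered 1 and at 0.710 and 0.346 RPKM in those numbered 2, a log2 fold change of -0.89 ± 0.152 (SE) with an adjusted p of 0.0411 by limma. BIK, a BH3-only gene, was at 0.869 and 0.708 RPKM in the libraries numbered 1 and at 1.55 and 1.29 RPKM in those numbered 2, a log2 fold change of 0.43 with an adjusted p of 0.0739. Between mimic and control, BNIP3L, a mitophagy receptor, was the only relative past the unadjusted threshold. It was at 7.35 and 7.20 RPKM in mimic NC and at 4.81 and 4.19 RPKM in miR-217 mimic. The difference on the log2 scale was -0.59 ± 0.122 (SE), with an unadjusted p of 0.00535 and an adjusted p of 1.00. Its 3'UTR held no ATGCAGT and 1 TGCAGTA. Its relative BNIP3 was at 8.94 and 6.26 RPKM in mimic NC and at 5.89 and 4.75 RPKM in miR-217 mimic, also without overlap, with a log2 fold change of -0.43 ± 0.202 (SE) and an unadjusted p of 0.0873. The 3'UTR of BNIP3 held ATGCAGT once, at bases 437 to 443 after the stop codon. BCL2L2, an anti-apoptotic relative of BCL2L1, was at 8.47 to 11.7 RPKM and passed in neither comparison.

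Downstream of the pores, the mitochondrial pathway comprises the released factors, APAF1, the caspases and the inhibitors of apoptosis. All 16 listed genes were tested, and between the numbers 1 was higher and 5 were lower at an unadjusted p under 0.05, beside 12.8% and 17.4% of all genes, with a median of -0.11 beside -0.035 over all genes. CASP9, the initiator caspase that APAF1 activates, was at 3.06 and 2.61 RPKM in the libraries numbered 1 and at 1.54 and 1.45 RPKM in those numbered 2, and fell by 0.61 on the log2 scale with an adjusted p of 0.0371 by limma. The other lower genes did not pass the adjusted threshold, among them the executioner caspase CASP6 at -0.53, the mitotic survivin gene BIRC5 at -0.36 and APAF1 at -0.33. BIRC3, an inhibitor of apoptosis, was the higher gene, at 0.50 with an adjusted p of 0.104. Between mimic and control no gene of the list passed an unadjusted p of 0.05, and log2 fold changes ranged from -0.27 to 0.25.

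In the death receptor pathway, 9 of 13 listed genes were tested, and none passed the adjusted threshold between the numbers. At an unadjusted p under 0.05, which 30.2% of all genes reached, the TRAIL receptor genes TNFRSF10A at 0.30 and TNFRSF10B at 0.19 were higher, and the kinase gene RIPK1 at -0.19 was lower. The ligand genes TNFSF10, FASLG and TNF were all at 0.201 RPKM or lower in every library. Between mimic and control none passed an unadjusted p of 0.05.

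Of the regulators of the members, 10 of 11 listed genes were tested, and between the numbers 2 passed the adjusted threshold, both higher, beside 7.04% of all genes. The list was chosen with earlier results of these data known, so this count is a description only. ATF4 and DDIT3 encode transcription factors of the integrated stress response, in which ATF4 is known to act on PMAIP1 and DDIT3. ATF4 was at 54.4 and 57.4 RPKM in the libraries numbered 1 and at 123 and 121 RPKM in those numbered 2, a log2 fold change of 1.11 with an adjusted p of 0.0104 by limma. DDIT3 was at 7.40 and 6.87 RPKM in the libraries numbered 1 and at 30.8 and 29.8 RPKM in those numbered 2, a log2 fold change of 1.94 with an adjusted p of 0.00409. ATF4 and DDIT3 rose in the libraries in which PMAIP1 was high. A link between these rises was not tested, and it cannot be told apart from whatever else differed between the numbers. Of the genes past the unadjusted threshold only, FOXO1, an activator of BCL2L11, was at 0.38, and USP9X, which removes ubiquitin from MCL1 protein, was at 0.21. Between mimic and control no regulator passed an unadjusted p of 0.05, and those log2 fold changes lay between -0.086 and 0.089.

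**Figure D4:**
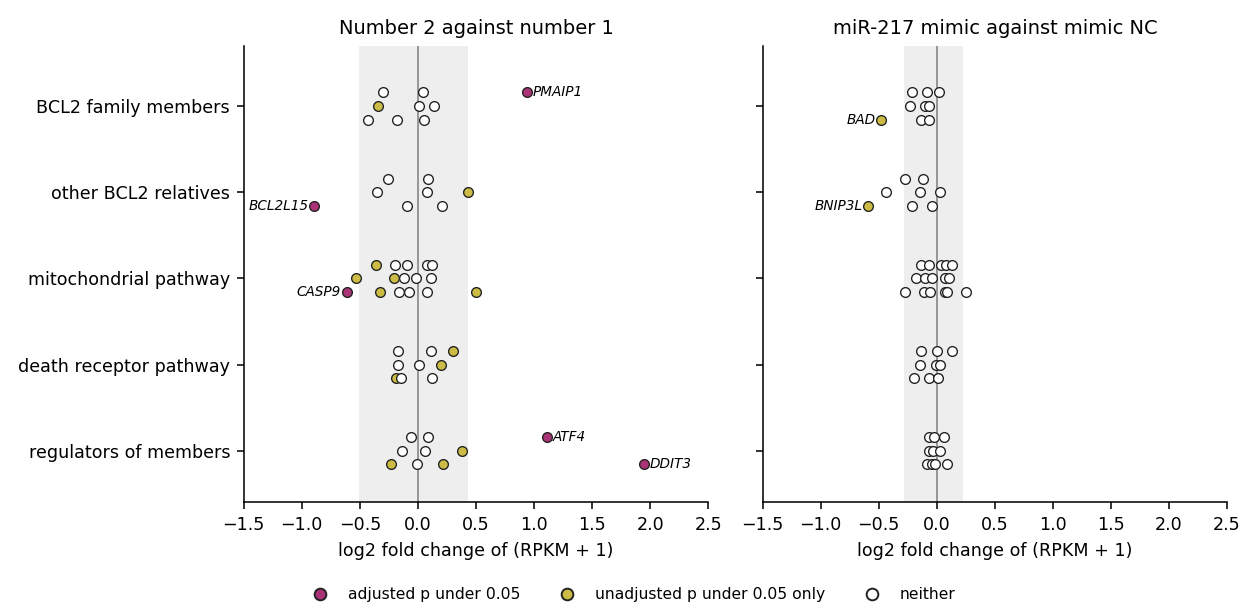
Log2 fold changes of RPKM + 1 for the tested genes of the BCL2 family members and the 4 other apoptosis lists, for number 2 against number 1 (left) and miR-217 mimic against mimic NC (right), with the range between the 5th and 95th percentile of all tested genes in grey. DDIT3 at 1.94, ATF4 at 1.11 and PMAIP1 at 0.94 lie farthest to the right in the left panel, and BNIP3L at -0.59 and BAD at -0.48 lie farthest to the left in the right panel.

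Since ATF4 binds DNA at composite elements and at sites like those of CREB, the promoters of the members were searched for TGATGNAA and TGACGT on both strands. RefSeq windows from 250 bases before to 50 bases after the start (GRCh38.p14) were given for 9 members in 15 windows. None was given for MCL1, whose promoter was not searched. No window held TGATGNAA, which 3.62% of 35116 windows held. TGACGT was found in the windows of PMAIP1 and BAD, and in 7.98% of all windows. The stretches are printed because PMAIP1 rose in the libraries numbered 2 and BAD did not pass, with the match in capitals and the strand of the gene.
PMAIP1, chr18:59899928-59899957, plus strand, match at -56 to -51 from the start: tctagtttccctACGTCAccagggaagttc
BAD, chr11:64284741-64284770, minus strand, match at -54 to -49 from 1 start and at -93 to -88 from another: gacctacccgagTGACGTtccgagaggtga

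The match of PMAIP1 is on the strand opposite to the gene and that of BAD on its own strand. The members with this match included 1 that rose and 1 whose libraries overlapped between the numbers. A match is a description of the letters and not of binding.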

How the data were processed

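RNA-seq was measured in 4 libraries, grouped by the sample labels. Per the labels, RNA was extracted with TRIzol, and a stranded mRNA library kit was used. The submitters' processing notes name Trimmomatic 0.36, featureCounts, Subread 1.5.1, edgeR 3.12.1 and build hg38, and the aligner, annotation and strand setting are not given in the sources used here. The authors deposited RPKM values, scaled by gene length and the reads on all genes. All nonzero values were whole multiples of 1 read, within 0.01 reads, which gave the read counts per library and their 95% Poisson intervals.

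Values were tested as log2(RPKM + 1) with limma 3.58.1 in R 4.3.3 (lmFit, eBayes with a trend, two-sided) over the 13871 genes whose mean RPKM reached 1, without a replicate term, with Benjamini-Hochberg adjustment over all of them. Thresholds were 0.05. The script was tested on simulated data. The members and the gene lists were chosen with earlier results of these data known. All members were named, and of the other lists, per comparison, up to 3 rises and 3 falls of largest size at an unadjusted p under 0.05 without overlap. APAF1, USP9X, ATF3, BCL2L2, BNIP3, TNFSF10, FASLG and TNF were named after their values were seen. Some results of these lists are not reported here.

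The tests were repeated without a filter, with a minimum mean RPKM of 5, with a pseudocount of 0.1, with median centring, with a replicate block, with limma voom (TMM factors, recovered reads) and leaving out each library in turn. Voom with the replicate block and BCL2 without a filter were chosen after seeing the data. Sites were searched with Python 3.11.15 in GENCODE 29, promoters in RefSeq windows, and plots made with matplotlib 3.10.9.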

Additional observations from a re-analysis of the deposited data

Results flagged for a closer look

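Differences between single libraries had opposite signs on the log2(RPKM + 1) scale for 3 members, and none of these contrasts was tested. For BAX, miR-217 mimic minus mimic NC was 0.089 between the libraries numbered 1 and -0.54 between those numbered 2, which differ by -0.63. For BCL2L1, number 2 minus number 1 was 0.099 within mimic NC and -0.0061 within miR-217 mimic, which differ by -0.11. For BCL2L11, number 2 minus number 1 was -0.072 within mimic NC and 0.088 within miR-217 mimic, and miR-217 mimic minus mimic NC was -0.061 and 0.10 between the libraries numbered 1 and 2, which both differ by 0.16. With 1 library on each side these values carry counting error and unknown variation between libraries.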

How the results depend on the processing

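Between the numbers, PMAIP1 kept its rise under every alternative run, and its adjusted p was under 0.05 in 6 of 7 alternatives that kept all libraries (0.0931 without a filter, where 32955 genes were tested) and in 2 of 4 that left out a library. Members past the adjusted threshold numbered 1 as reported, 0 without a filter, 2 at a mean RPKM of at least 5, 2 with voom, 2 with voom and the replicate block, and 0 to 4 with a library left out. Of all genes, 7.04% passed as reported and 0.00910%, 15.8%, 15.7% and 25.2% in those 4 fits, and 0.0649% (without mimic NC replicate 1) to 28.3% (without mimic NC replicate 2) with a library left out, which leaves 1 arm with 1 library whose spread is assumed to be that of the others. MCL1 was the added member in the 3 fits with 2. Members past the unadjusted threshold numbered 2 as reported, 4 with voom and the replicate block, and 1 to 5 with a library left out, where 30.2%, 37.9% and 13.2% to 43.5% of all genes passed. Other pathway genes past the adjusted threshold numbered 4 as reported, 0 without a filter, 2 at a mean RPKM of at least 5, 7 with voom, 12 with voom and the replicate block, and 1 to 8 with a library left out, and those past the unadjusted threshold 16 as reported, 9 at a mean RPKM of at least 5, and 6 to 17 with a library left out. The cause of these moves was not tested. Between mimic and control, members past the unadjusted threshold numbered 1 as reported, 1 with the replicate block, and 1 with voom and the replicate block. Other pathway genes past it numbered 1, 4 and 7 in these 3 fits. Of all genes, 1.19%, 7.54% and 9.53% passed it in the same fits. With a library left out, whether a member passed depended on the library.

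The numbers 1 and 2 are shared only as numbers, with 2 of them, so the replicate block is given here alone. Differences between the numbers correlated across genes between the groups (r = 0.680, genes not being independent replicates). With the replicate block, PMAIP1 had an adjusted p of 0.0209 between the numbers, and BAD an unadjusted p of 0.00443 and an adjusted p of 0.633 between the groups.

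With a library left out, signs turned for members that passed no threshold. Between the numbers, the log2 fold change ranged from -0.012 to 0.11 for BCL2L1, -0.042 to 0.058 for BCL2L11 and -0.48 to 0.11 for BAD. Between mimic and control it ranged from -0.27 to 0.13 for MCL1, -0.57 to 0.40 for PMAIP1, -0.025 to 0.063 for BCL2L11, -0.60 to 0.15 for BAX and -0.44 to 0.019 for BBC3. No sign turned under the other alternatives. Depth limits BBC3, BCL2 and BCL2L11 most, with 87 to 430 reads in a library.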
